A study of Mus musculus with 2 samples.

Results

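The lysosomal genes described here are 42 genes that encode acid hydrolases, their protein cofactors and proteins of the lysosomal membrane. They were listed by name, as textbook components of the lysosome, with earlier results of these data known. They were compared between D16 and D351, 2 mouse mesoangioblast clones, each measured on 1 U74A array. Mesoangioblasts are progenitor cells of the vessel wall that can be grown from the embryonic aorta. Both clones descend from the dorsal aorta of C57BL6 mouse embryos at embryonic day 9.5, with no transgene or treatment named in the labels, and were obtained by the same route. The aorta was explanted for 5 days, and dissociated cells were then diluted so that single cells founded colonies on a layer of mouse embryonic fibroblasts whose division had been blocked with Mitomycin C. The medium was RPMI with 20% foetal calf serum, and colonies were later moved to dishes coated with gelatin. Each group is therefore a single clone and a single array, so that differences between clones, between cultures and between arrays cannot be told apart, and no test, standard error or p-value can be given.

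Of the 42 genes, 39 had a probe set that named them alone. Manba, Arsb and Sgsh had none and are not analysed here. A level was called measured where the scaled intensity reached a floor of 17.4, the 40th percentile of all non-control values. By that criterion 33 of the 39 genes were measured in at least 1 clone, 29 of them in both, 3 in D351 alone and 1 in D16 alone, and 6 were below the floor in both. For all genes on the array, 6102 of 8251 were measured in at least 1 clone. A gene was represented by its brightest probe set, and its log2 ratio is that of D351 over D16. A gene is said to pass 2-fold toward a clone where its level in that clone was at least 2 times its level in the other. Where a clone was below the floor, the floor took the place of its level, and the ratio is a bound written as "at least". Intensities of different probe sets are not on a common scale, so levels are compared only between clones and not between genes. The measurable part of the error was the disagreement of probe sets that target the same gene. Over 806 genes it had an SD of 0.52 in log2 units, which is 1.43-fold.

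Lysosomes are acidic organelles in which proteins, glycans and lipids are broken down. Most of their soluble enzymes are made as precursors, tagged with mannose 6-phosphate in the Golgi, carried to endosomes by receptors and matured by proteolysis. Heavily glycosylated membrane proteins line the organelle, and a proton pump keeps its lumen acidic. Many lysosomal genes carry in their promoters a short element named CLEAR, built on an E-box, which binds the transcription factor TFEB and its relatives. Loss of a single enzyme leads to storage of its substrate, as in the mucopolysaccharidoses and sphingolipidoses.

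The E-box sites of these genes are shown first. The choice of members did not use them, but the element is known from lysosomal genes as a class. A higher share among the members is therefore no independent result. Promoter windows of 300 bases, from 250 bases before the transcription start to 50 after it, were taken from RefSeq annotation of mouse build GRCm38.p6 and matched 38 of the 42 genes by symbol. The E-box core CACGTG, which reads the same on both strands, was found in 11 of these 38 genes (28.9%), namely Ctsa, Ctsd, Ctsf, Ctsl, Lgmn, Glb1, Gaa, Gla, Arsa, Sgsh and Lamp1. The share was 8.09% of 27025 genes with a window, and 12.3% of the 4916 of these that were measured on the arrays. The longer CLEAR core TCACGTGA, which contains the E-box core, was found in 3 of the 38 genes (7.89%), Ctsa, Ctsd and Gla, against 1.12% of all genes and 2.24% of measured genes. These are matches of letters and do not show that a factor was bound.

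The stretches below are printed 5′ to 3′ on the strand of the gene, with each E-box core in capitals, for the 5 measured genes with a core that began fewer than 50 bases before the start. Lamp1, which encodes an abundant lysosomal membrane glycoprotein, had 4 cores in a stretch of 60 bases ending 5 bases before its start, on the plus strand at chr8:13159097-13159156. Ctsa, which encodes a carboxypeptidase that protects other lysosomal enzymes, had a core on either side of its start, on the plus strand at chr2:164833753-164833791. The others are Lgmn (minus strand, chr12:102439128-102439149), Arsa (minus strand, chr15:89477427-89477448) and Glb1 (plus strand, chr9:114401022-114401043).
Lamp1: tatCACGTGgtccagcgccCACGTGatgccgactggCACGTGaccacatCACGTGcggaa
Ctsa: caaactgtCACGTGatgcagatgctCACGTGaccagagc
Lgmn: atgtctgtCACGTGgtccattt
Arsa: ctcagtgtCACGTGttgtctgc
Glb1: ttctgagtCACGTGgcctacag

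The windows of the lysosomal genes held 17 such cores, of which 11, in 8 genes, began within 100 bases before the start. The core of Ctsd that lies in a CLEAR core began 98 bases before the start, and both cores of Gla lay farther out, at 227 and 194 bases.

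**Figure D1:**
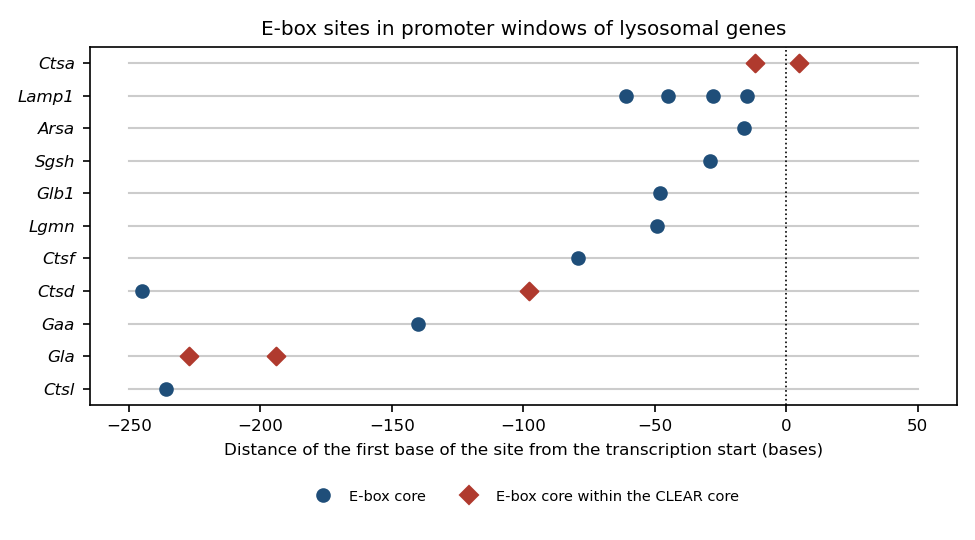
Positions of E-box cores in promoter windows of 11 lysosomal genes, as the distance in bases of the first base of each site from the transcription start (dotted line at 0). Grey lines span the window searched, circles are E-box cores and diamonds are cores that lie within a CLEAR core; Lamp1 has 4 sites within 61 bases of its start and Ctsa has a site on either side of it.

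In the arrays, lysosomal genes had mostly higher levels in D351. Of the 33 measured genes 14 passed 2-fold toward D351, against 10.6% of the 6102 measured genes of the array. Toward D16, 0 of the 33 passed it, against 8.87% of all measured genes. The remaining 19 lay within 2-fold. The log2 ratio was above 0 in 29 of the 33, a direction shared by 48.4% of all measured genes, and the median was 0.77 where that of all measured genes was -0.03. The 4 exceptions were Ctsl, Gla, Smpd1 and Gm2a. Of the 14 genes 3, Ctsf, Ctsh and Cd68, were measured only in the clone in which they were high. This fixed their direction, though not a pass of 2-fold, and the counts are given without them as well. Among the 29 genes measured in both clones, 11 passed 2-fold toward D351, against 9.58% of 5198 such genes on the array, and 0 passed it toward D16, against 8.43%, with a median of 0.70 where all such genes had -0.02. With no floor and a pseudocount of 16 added to each value, all 39 genes on the array could be included, and 13 of them passed 2-fold toward D351, against 6.45% of 8251 genes. These counts describe 2 arrays and carry no test.

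**Figure D2:**
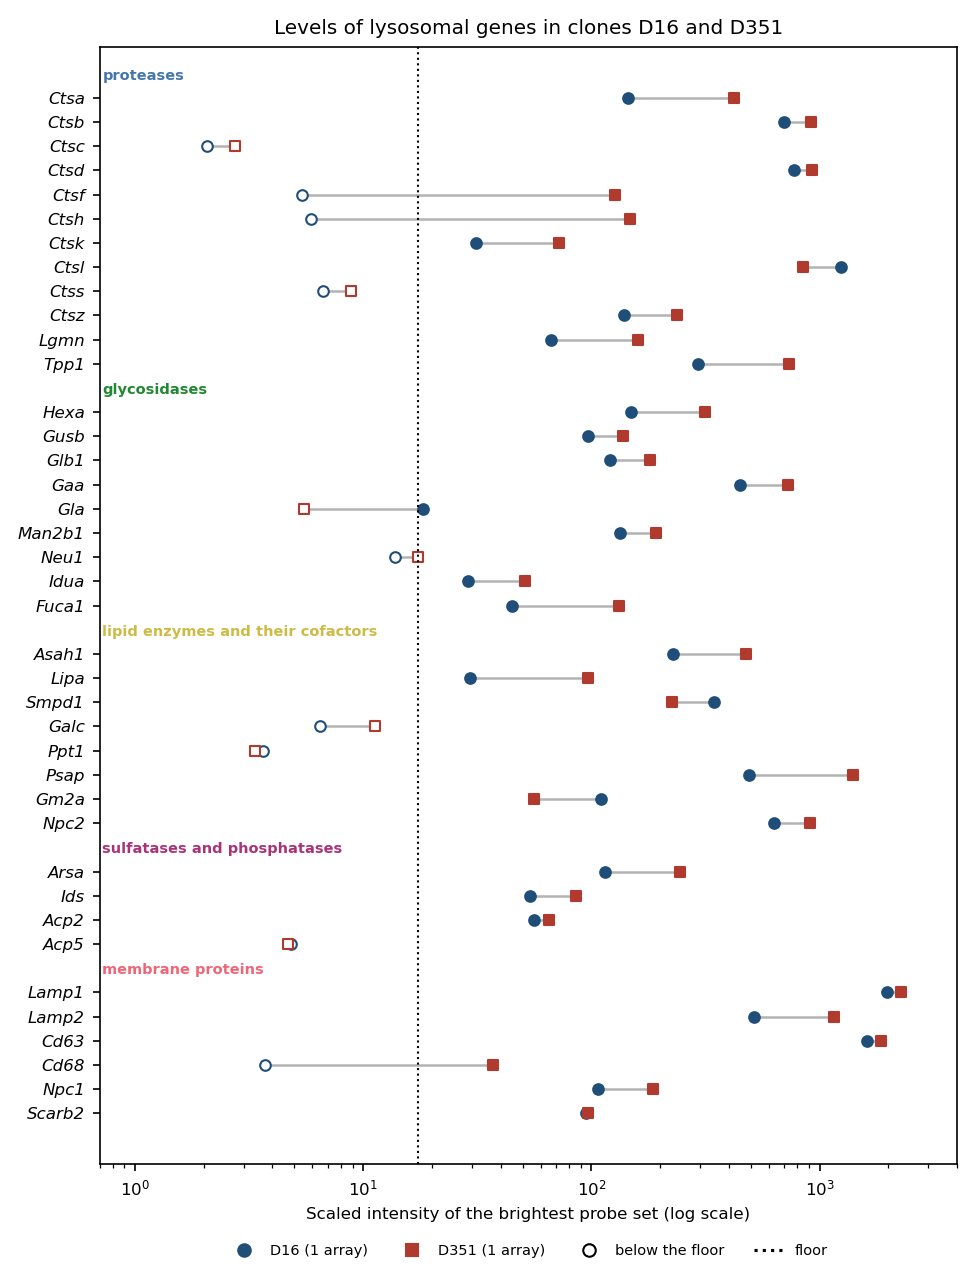
Scaled intensity (log axis) of the brightest probe set of 39 lysosomal genes in D16 (circles) and D351 (squares), 1 array each, grouped by role. Open symbols lie below the floor of 17.4 (dotted line); the square lies to the right of the circle for 29 of the 33 genes measured in at least 1 clone, while Ctsl, Gla, Smpd1 and Gm2a run the other way.

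Among the proteases, of 12 genes on the array 10 were measured, 6 passed 2-fold toward D351, 0 passed it toward D16, and the median log2 ratio was 1.24. The shares over all measured genes were 10.6% and 8.87%, and every role group is small beside them. The cysteine cathepsin gene Ctsh, whose product acts as an aminopeptidase, measured 5.90 in D16, below the floor, and 148 in D351, which is at least 8.51-fold higher. Ctsf, another cysteine cathepsin gene, measured 5.41 in D16, also below the floor, and 127 in D351, at least 7.29-fold higher. Both genes were therefore detected in D351 alone, each by its only probe set, which fixed their direction but not a pass of 2-fold. Over the 8 proteases measured in both clones, 4 passed 2-fold toward D351, against 9.58% of all such genes, and the median was 0.99. Ctsa measured 145 in D16 and 423 in D351 (2.93-fold). Tpp1, which encodes a tripeptidyl peptidase lost in a childhood form of neuronal ceroid lipofuscinosis, measured 294 and 734, a ratio of 2.50. Lgmn, the gene of the asparaginyl endopeptidase legumain that processes cathepsin precursors, measured 66.3 and 160 (2.42-fold). Ctsk, the collagen-degrading cathepsin known from osteoclasts, measured 31.4 and 72.4 (2.31-fold), with the D16 level near the floor. With the floor at the 60th percentile its log2 ratio was a bound of at least 0.44.

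The cathepsin genes Ctsd, Ctsb, Ctsz and Ctsl lay within 2-fold by their brightest probe sets. Ctsd, the aspartic protease of the lysosome, measured 774 in D16 and 924 in D351, a log2 ratio of 0.26. Ctsb, a cysteine protease with endopeptidase and dipeptidase activity, measured 696 and 922, a log2 ratio of 0.41, but its other measured probe sets gave 0.87 and 1.94. Ctsb thus lay on the D351 side by all 3 probe sets, with a size that depended on the probe set. Ctsz, a carboxypeptidase, measured 139 and 237 (log2 ratio 0.77). Ctsl, an endopeptidase of broad specificity, was the exception among the proteases and measured 1247 in D16 and 845 in D351, a log2 ratio of -0.56, close to 1 SD between probe sets. Ctsc, which activates the serine proteases of leukocyte granules, and Ctss, a cathepsin of antigen-presenting cells, were below the floor in both clones, at 2.06 and 2.75 for Ctsc and at 6.68 and 8.85 for Ctss.

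Glycosidases, which remove sugars from glycoproteins, glycolipids and glycosaminoglycans, had a median log2 ratio of 0.64 over 8 measured genes. Of these, 2 passed 2-fold toward D351 and 0 toward D16, against 10.6% and 8.87% of all measured genes. Fuca1, the fucosidase gene, measured 44.7 in D16 and 132 in D351 (2.95-fold). Hexa, the alpha subunit of beta-hexosaminidase that is lost in Tay-Sachs disease, measured 149 and 316 (2.13-fold). Below 2-fold on the same side were Idua, Gaa, Glb1, Man2b1 and Gusb. Idua, the iduronidase gene of heparan and dermatan sulfate breakdown, measured 28.7 and 51.3 (log2 ratio 0.84), both near the floor. Gaa, the acid glucosidase of glycogen breakdown, measured 447 and 725 (0.70). Glb1, the acid beta-galactosidase whose activity is used as a stain for senescent cells, measured 120 and 181 (0.59), and a weaker probe set of the gene gave 0.01. Man2b1, the alpha-mannosidase, measured 134 and 193 (0.53), whereas its other probe set gave -0.50, so that its direction was not settled. Gusb, the beta-glucuronidase, measured 96.3 and 138 (0.52). Gla, the alpha-galactosidase lost in Fabry disease, measured 18.4 in D16, just above the floor, and 5.49 in D351, below it, which makes it at least 1.06-fold higher in D16, a bound that says little. Neu1, a sialidase that forms a complex with the products of Ctsa and Glb1, measured 13.9 and 17.4 and was below the floor in both, in D351 by less than the rounding of the value.

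The lipid enzymes and their cofactors included Gm2a and Smpd1, with the 2 lowest ratios of the 29 genes that both clones expressed above the floor. Of 8 genes 6 were measured, with a median log2 ratio of 0.79. Of the 6, 3 passed 2-fold toward D351 and 0 toward D16, against 10.6% and 8.87% of all measured genes. Lipa, the acid lipase that releases cholesterol and fatty acids from lipoproteins taken up by the cell, measured 29.5 in D16 and 96.9 in D351 (3.28-fold), with the D16 level near the floor. With the floor at the 60th percentile its log2 ratio was a bound of at least 0.86. Psap, the precursor of the saposins that present sphingolipids to their hydrolases, measured 492 and 1394 (2.84-fold). A probe set of Psap below the floor in D16 gave a log2 ratio of at least 1.69, but the remaining probe set, at levels of 85.7 and 84.1, gave -0.03. The higher level of Psap in D351 was thus seen in 2 of its 3 probe sets. Asah1, the acid ceramidase, measured 229 and 474 (2.08-fold, log2 ratio 1.05), so close to 2-fold that quantile normalization placed it below, at 0.98. Npc2, the soluble cholesterol carrier of the lysosome, measured 633 and 907 (log2 ratio 0.52).

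Gm2a and Smpd1 were lower in D351. Gm2a, the activator protein that lifts ganglioside GM2 to beta-hexosaminidase A, measured 111 in D16 and 55.9 in D351, a log2 ratio of -0.99. Its log2 ratio lay 2.08 below that of Hexa (1.09), whose product it serves, by 1 probe set for Gm2a and by the single measured probe set for Hexa. Smpd1, the acid sphingomyelinase, measured 344 and 225 (log2 ratio -0.61). Galc, the galactosylceramidase, measured 6.49 and 11.3, and Ppt1, the palmitoyl-protein thioesterase, 3.64 and 3.36, all below the floor.

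Sulfatases and phosphatases were the smallest group, with 3 of its 4 genes on the array measured and a median log2 ratio of 0.68. Of the 3, 1 passed 2-fold toward D351 and 0 toward D16, against 10.6% and 8.87% of all measured genes. Arsa, which desulfates sulfatide, measured 114 in D16 and 246 in D351 (2.15-fold). Ids, the iduronate sulfatase gene on chromosome X, measured 53.8 and 86.1 (log2 ratio 0.68), and its other 2 probe sets were below the floor in both clones. Acp2, a lysosomal acid phosphatase, measured 55.9 and 65.3 (0.22). Acp5, the tartrate-resistant acid phosphatase of osteoclasts and macrophages, was below the floor in both, at 4.82 and 4.68.

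All 6 membrane protein genes were measured, with a median log2 ratio of 0.50. Of the 6, 2 passed 2-fold toward D351 and 0 toward D16, against 10.6% and 8.87% of all measured genes. Lamp2, a glycoprotein of the lysosomal membrane needed for autophagy and encoded on chromosome X, measured 518 in D16 and 1157 in D351 (2.23-fold), and its other probe set gave a log2 ratio of 1.88. Its relative Lamp1, with the 4 E-box cores printed above, measured 1979 and 2276 (log2 ratio 0.20). The difference in log2 ratio between Lamp2 and Lamp1 was 0.96. Cd63, a tetraspanin of late endosomes, lysosomes and exosomes, measured 1606 and 1849 (0.20). Npc1, which takes cholesterol from the product of Npc2 and exports it, measured 107 and 186 (0.79). Scarb2, the receptor that carries glucocerebrosidase to the lysosome, measured 94.8 and 97.0, a log2 ratio of 0.03 that was -0.02 in the values as deposited; it was the only one of the 33 genes whose sign changed under the 9 alternatives for scaling, floor and probe set. Cd68, the macrophage form of a lysosomal glycoprotein, measured 3.74 in D16, below the floor, and 36.9 in D351, at least 2.12-fold higher, by a probe set of a kind that can match transcripts of other genes. Detection in D351 alone fixed the direction of Cd68. Without Cd68, 1 of the 5 membrane protein genes passed 2-fold toward D351, against 9.58% of all genes measured in both clones, and their median was 0.20.

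**Figure D3:**
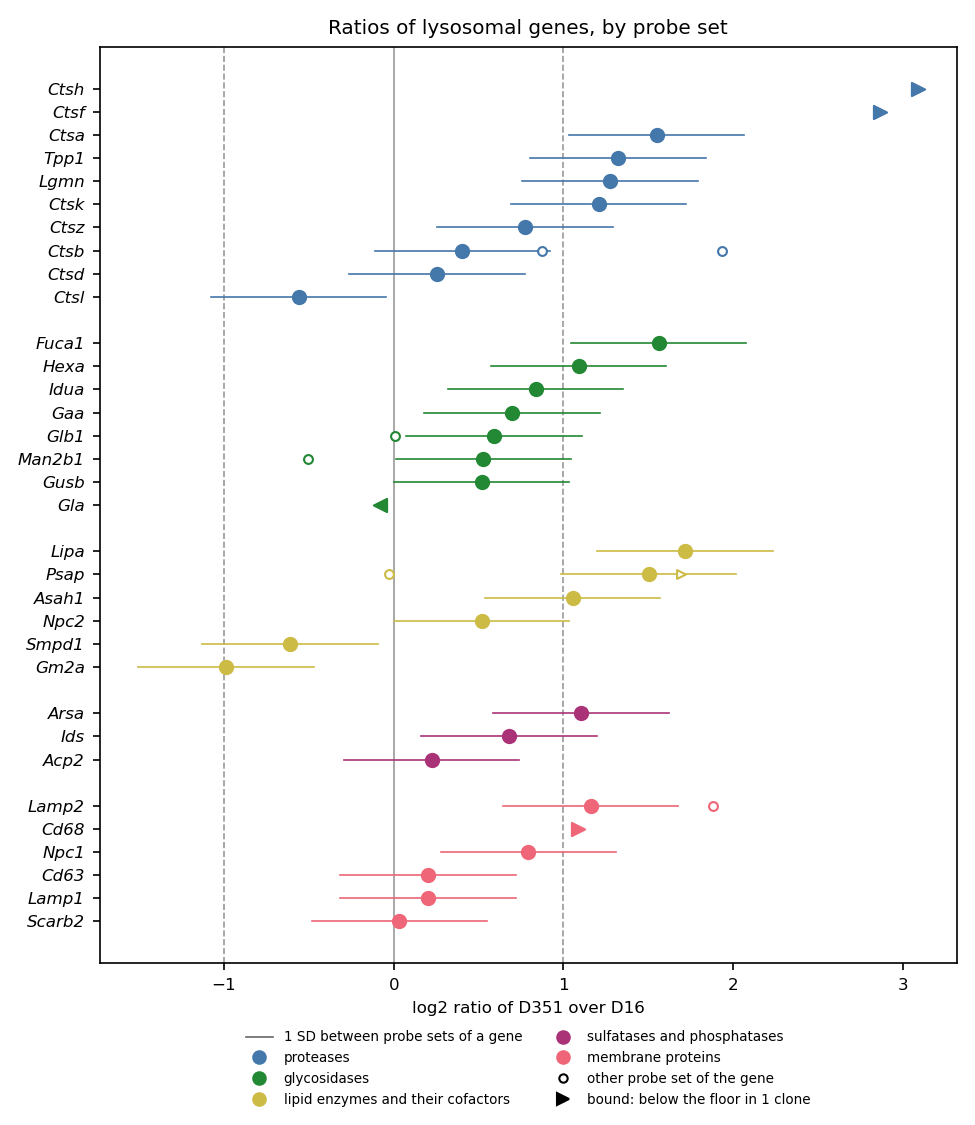
Log2 ratio of D351 over D16 for the 33 lysosomal genes measured in at least 1 clone, grouped by role; large symbols are the brightest probe set, small open symbols other probe sets, triangles bounds, horizontal bars 1 SD between probe sets of a gene (0.52) and dashed lines a 2-fold difference. The large symbols of 14 genes lie right of the right dashed line and 0 left of the left one, and probe sets disagree most for Psap and Ctsb.

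Several of the 14 genes stood near the threshold of 2-fold, and the count should be read with the spread between probe sets. Within 0.2 of it on the log2 scale were 7 genes in all, namely Asah1, Cd68, Hexa, Arsa and Lamp2 just past it, Idua short of it and, in the other direction, Gm2a short of it. Under these 9 alternatives, 10 of the 14 passed 2-fold toward D351 each time, and Ctsk, Lipa, Asah1 and Cd68 did not. When the arrays were scaled on 9 hybridization control probe sets, the median of all measured genes moved to 0.34, and that of the lysosomal genes to 1.17. The number of lysosomal genes past 2-fold toward D351 was then 19, and over all genes 1214 passed toward D351 and 250 toward D16, against 645 and 541. Relative to the median of all genes, that of the lysosomal genes was higher by 0.80 in the main setting and by 0.83 in this one. As a sign of RNA integrity, the 3′ control probe set of Actb was 1.81 times as bright as the 5′ one in D16 and 1.37 times in D351, with 1.56 and 1.44 for Gapdh, and its part in the result was not tested.

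The median ratio of lysosomal genes with an E-box core was not above that of genes without one, a comparison that carries no test. Measured genes with a core numbered 10, with a median log2 ratio of 0.64 and 4 past 2-fold toward D351 (Ctsa, Ctsf, Lgmn and Arsa). Measured genes with a window but no core numbered 19, with a median of 0.78 and 8 past 2-fold toward D351. Of all measured genes, with or without a core, 10.6% passed 2-fold toward D351. The split by core was not made for all measured genes, so these 2 counts have no matching background. The 3 genes with a CLEAR core were spread, from Ctsa at 1.55 to Ctsd at 0.26 and Gla at -0.08, the last a bound. Tfeb and Mitf, which encode factors that bind the element, were below the floor in both clones, at 7.67 and 2.54 for Tfeb and at 15.1 and 13.1 for Mitf. Tfe3 and Tfec, which encode relatives of TFEB, had no probe set that named them alone, so their levels are not known here.

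By position, the 33 measured genes lay on 16 chromosomes, and the 14 that passed 2-fold toward D351 on 12 of them. The X-linked genes Lamp2, Ids and Gla had log2 ratios of 1.16, 0.68 and at most -0.08. Among the measured genes of the pathway lists described below, Rab9, Atp6ap1 and Atp6ap2 also lie on chromosome X. Their log2 ratios were 2.00, 1.33 and 0.13. Xist, which silences an X chromosome in female cells, measured 10.2 in D16, below the floor, and 71.7 in D351. Neither clone reached the floor for Uty, Kdm5d or Eif2s3y, which lie on chromosome Y.

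Other genes of the lysosomal pathway were taken from 5 further lists. Of 75 measured genes in these lists 13 passed 2-fold toward D351 and 4 toward D16, and the median log2 ratio was 0.46. Single lists are small, and their counts stand against the same 10.6% and 8.87% of all measured genes. Other lysosomal hydrolases and membrane proteins had a median of 0.54 over 21 genes, of which 5 passed 2-fold toward D351 and 1 toward D16. Scpep1, a serine carboxypeptidase, was 3.78-fold higher in D351, Naglu, which acts with Idua, Ids and Sgsh on heparan sulfate, 3.15-fold, the sialomucin gene Cd164 2.75-fold, and the thiol reductase gene Ifi30 at least 3.54-fold. These 4 were picked by their values, as the genes of the list furthest past 2-fold. Ggh, a glutamyl hydrolase gene, and Cln8, the single one past 2-fold toward D16, were added outside that rule, also after their values were seen. Their log2 ratios were 1.17 and -1.01.

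Genes that sort or activate lysosomal enzymes had a median of 0.39 over 21 measured genes, of which 4 passed 2-fold toward D351 and 1 toward D16. Rab9, a GTPase of the return route from late endosomes to the Golgi, measured 224 in D16 and 896 in D351 (4.01-fold). Vps41, a subunit of the complex that tethers vesicles to lysosomes, was 3.04-fold higher in D351, Sumf1, which activates all sulfatases including the products of Arsa and Ids, 2.69-fold, and Ap3d1, an adaptor for lysosomal membrane proteins, 2.26-fold. These 4 were likewise picked by their values. Vps16, added outside that rule after its value was seen, had a log2 ratio of -1.06. Igf2r, the large mannose 6-phosphate receptor, measured 240 and 315, and M6pr, the small one, was below the floor in both.

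Proton pump genes had a median close to that of the sorting genes. Of 15 measured subunit genes, 1 passed 2-fold toward each clone (6.67%), against 10.6% toward D351 and 8.87% toward D16 of all measured genes. The median log2 ratio was 0.37. Atp6ap1, an accessory subunit, was 2.52-fold higher in D351, and Atp6v0b, a subunit of the membrane sector, 2.18-fold higher in D16. Among regulators of lysosomal genes and of autophagy, 14 genes were measured with a median of 0.47, and 1 passed 2-fold toward each clone. Map1lc3b, which coats autophagosomes, was 2.80-fold higher in D351, and its other probe set gave a log2 ratio of 1.12. Mtor, the kinase that holds TFEB in the cytoplasm, was 2.41-fold higher in D16, and its other probe set gave a log2 ratio of -0.58. Of the list of cathepsin inhibitors 4 genes were measured, with a median of 0.69. The cystatin genes proper, Cst3 and Cstb, had log2 ratios of 0.16 and 0.28, and the other probe set of Cst3 gave -0.51. The 2 genes of that list past 2-fold toward D351 were serpins, Serpinb6a (29.8-fold), an inhibitor of serine proteases, and Serpinh1 (2.14-fold), a collagen chaperone.

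**Figure D4:**
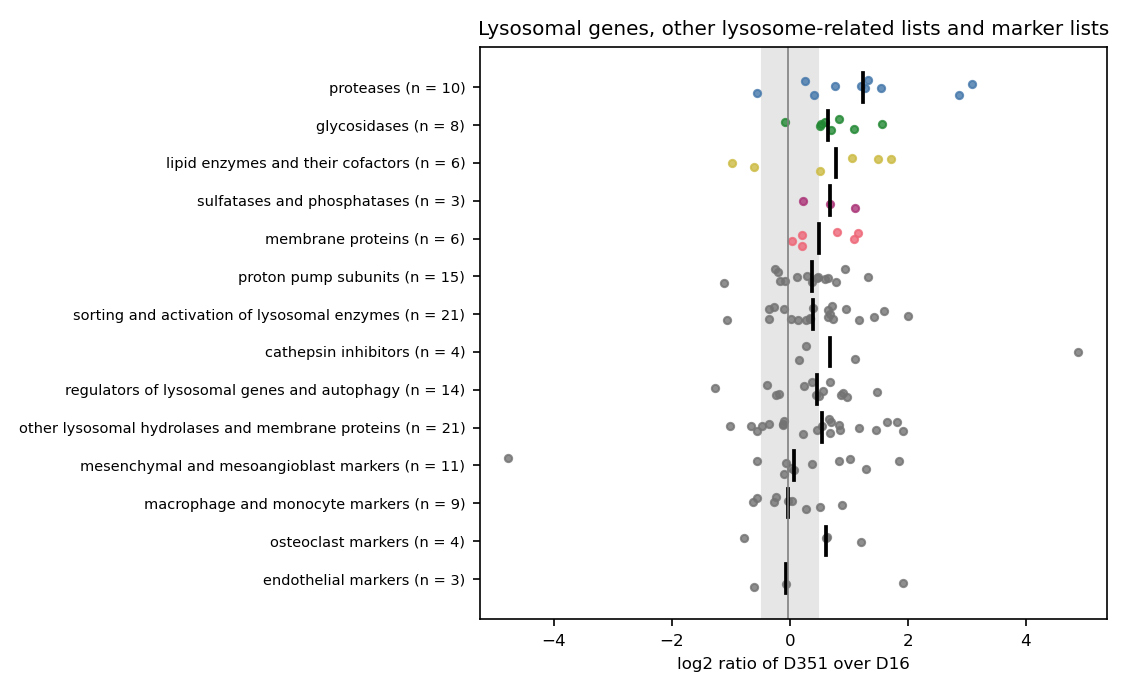
Log2 ratio of D351 over D16 for the measured genes of 5 role groups of lysosomal genes (coloured) and of 5 pathway and 4 marker lists (grey), with black bars at list medians. The vertical line is the median of all 6102 measured genes (-0.03) and the shaded band their middle 50% (-0.48 to 0.47); the medians of the role groups run from 0.50 to 1.24, and that of the macrophage and monocyte markers is -0.02.

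Lysosomal genes are strongly expressed in macrophages and osteoclasts, so markers of these and other cell types are given beside the result. Of 22 macrophage and monocyte markers on the array 9 reached the floor in at least 1 clone, and 0 were 2-fold apart in either direction. Over all measured genes, 10.6% passed 2-fold toward D351 and 8.87% toward D16. Adgre1, Lyz2, Ptprc, Itgam and Aif1 were below the floor in both clones, and Csf1r measured 21.9 and 18.2, both near the floor of 17.4. The other probe set of Csf1r gave a log2 ratio of 0.28. Of the 9 markers, 4 had a log2 ratio above 0 and 5 below it. On the D351 side, Cd14 measured 70.1 and 129 (1.85-fold), and C1qb, below the floor in D16, was at least 1.43-fold higher. On the D16 side, Laptm5 measured 41.6 and 28.3 (1.47-fold), and Spi1, below the floor in D351, was at least 1.53-fold higher. Of 7 osteoclast markers on the array, Ctsk among them, 4 were measured and 1, Ctsk itself, passed 2-fold toward D351, while Calcr, Itgb3 and Acp5 were below the floor in both. Tnfrsf11a (4.13 and 27.0) and Mmp9 (5.41 and 26.6) were measured in D351 alone, at least 1.55-fold and 1.53-fold higher, and Nfatc1 measured 43.9 and 25.5. Of 9 endothelial markers 3 were measured, and Cdh5, Tek, Kdr and Vwf were below the floor in both. Flt1, the 1 endothelial marker past 2-fold toward D351, measured 16.2, below the floor, and 66.1, at least 3.80-fold higher, and its other probe set gave 1.46, while Pecam1 measured 30.8 and 20.3 and Eng 128 and 123.

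Markers of the labelled cell type were present in part. Of 14 mesenchymal and mesoangioblast markers on the array 11 were measured, with a median log2 ratio of 0.07, and 3 passed 2-fold toward D351 and 1 toward D16. The shares over all measured genes were 10.6% and 8.87%. Kit, Kdr and Nt5e were below the floor in both clones. Pdgfrb, a receptor of mural cells, was 3.62-fold higher in D351, and the collagen genes Col1a1 and Col1a2 2.45-fold and 2.03-fold, with log2 ratios of 0.41 and -0.62 for their other probe sets. Cd34 was at least 27.3-fold higher in D16. The other measured markers lay within 2-fold by their brightest probe set. In D16 and D351, Thy1 measured 1535 and 1041, Eng 128 and 123, and Pdgfra 762 and 714. The other probe set of Pdgfra gave a log2 ratio of -1.54. Acta2 measured 940 and 1685, Itgb1 1834 and 1853, Cd44 36.7 and 47.7, and Vim 22.3 and 23.5, near the floor. Whether the difference in lysosomal genes follows any of these markers was not tested.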

How the data were processed

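Total RNA of the 2 clones was measured on 1 array each. Each deposited value is the intensity of a probe set, not log-transformed. How the authors scaled the arrays is not stated in what was used here, and detection calls were not analysed here. Both arrays had a 2% trimmed mean of 100.1. Leaving out controls, 12422 probe sets were used, of which 10833 carried 1 symbol in the platform annotation (which is for version 2 of the array, whereas the labels give no version, so that whether a probe set below the floor is a faulty one was not tested), 396 several and 1193 none; 10817 symbols were updated by Entrez number to RefSeq annotation of GRCm38.p6. No coordinates were used except those of promoter windows.

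Arrays were brought to a common median log2 level over the probe sets that reached the floor on each of them, with factors of 0.98 and 1.02. The floor, the 40th percentile, was reached by 7537 probe sets in D16 (60.7%) and 7369 in D351 (59.3%). The number of arrays limits the precision. Members, role groups, lists and the threshold of 2-fold were chosen with earlier results of these data known. All 42 members are named. Of each other list, up to 4 genes furthest past 2-fold are named, and markers that bear on a cell type. Igf2r, M6pr, Cst3, Cstb, Tfeb, Mitf, Tfe3, Tfec, Atp6ap2, Ggh, Cln8 and Vps16 were named outside this rule. The functions were tested on simulated data. Alternatives covered scaling, floor, probe set and threshold. Calculations used Python 3.11.15, numpy 2.4.6, pandas 2.3.3, statsmodels 0.14.6 and matplotlib 3.10.9.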

Additional observations from a re-analysis of the deposited data

How the results depend on the processing

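No paired analysis was possible because a clone is a single array, and no replicate could be left out. Of 293 values of single genes under the alternatives, 283 stayed within 1 SD between probe sets of the main value, 10 moved by more (3 upward), and 0 that passed 2-fold changed sign. An alternative that preferred probe sets without a suffix letter in their name kept the suffixed probe sets of Ids and Cd68. Neither gene had another one measured, so for them that setting was no check. The count of 0 genes at least 2-fold higher in D16 became 1 in the values as deposited (Gm2a) and 1 with the floor at the 25th percentile (Gla), and was 2 at a threshold of 1.5-fold (21.0% of all measured genes). The count of 14 higher in D351 became 20 at 1.5-fold (21.1% of all) and 3 at 3-fold (4.15% of all), of which Ctsf and Ctsh were measured only in D351. With scaling on the hybridization controls, medians were 1.17 for all measured members, 1.64 for proteases, 1.04 for glycosidases, 1.18 for lipid enzymes and cofactors, 1.07 for sulfatases and phosphatases and 0.89 for membrane proteins. With the floor at the 60th percentile they were 1.01 for proteases and 0.20 for membrane proteins. With no floor and a pseudocount, which takes in genes below the floor, they were 0.53 for all members, 0.81 for proteases, 0.39 for lipid enzymes and cofactors and 0.36 for sulfatases and phosphatases. A floor at an intensity of 100, chosen after seeing the data, left 25 members, of which 7 were at least 2-fold higher in D351 (8.28% of 3321 genes), with medians of 0.57 for all members, 0.57 for proteases, 0.52 for lipid enzymes and cofactors and 1.11 for sulfatases and phosphatases. All these medians lay on the D351 side. Depth here is signal over background: Ctsk, Lipa, Idua and Gla had a level near the floor.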
